A study of Rattus norvegicus with 6 samples.

Results

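Genes of the intercalated cell were followed in the renal cortex of rats given p-nitroanisole and of rats given vehicle. The set comprised 10 genes, namely 5 subunits of the proton pump, the anion exchangers Slc4a1, Slc4a9 and Slc26a4, and the transcription factor genes Foxi1 and Hmx2. They were found by matching each probe's accession to a RefSeq gene table, which placed 9 of the 10 on the array with 17 of its 61537 probes, while no probe matched the accessions listed for the pump subunit gene Atp6v0a4. In all, 28193 probes of 15639 genes were named in this way. All 17 probes were well above background on all 6 arrays, as were 6 markers of the proximal tubule and podocytes, the defining cells of the cortex.

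The p-nitroanisole group was 3 male Sprague-Dawley rats given p-nitroanisole, an aromatic nitro compound, at 500 mg/kg per day for 4 weeks. The vehicle group was 3 male Sprague-Dawley rats given corn oil for the same time. All animals were bought at 5 weeks of age and fed a basal diet, and neither group carried any genetic change that the labels name. RNA of whole renal cortex, 1 animal per array, was hybridised to 1-colour Agilent arrays.

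Intercalated cells are the acid-base cells of the connecting tubule and collecting duct. They carry a vacuolar proton pump, which has a soluble V1 sector that hydrolyses ATP and a membrane V0 sector that moves the proton, and several of its subunits have forms found mainly in these cells. Type A cells secrete acid through an apical pump and return bicarbonate to the blood through the basolateral exchanger AE1, the product of Slc4a1. Type B cells secrete bicarbonate through the apical exchanger pendrin, the product of Slc26a4, and in the mouse they also hold AE4, the product of Slc4a9. In the mouse, Foxi1 is required for intercalated cells to form and for the expression of pump subunit and exchanger genes.

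Because Foxi1 is a forkhead factor, the RefSeq promoter windows of the genes (assembly GRCr8, 250 bases before to 50 bases after the gene's start) were searched for the forkhead core TGTTTAC on both strands. Windows were present for 8 of the 10 genes and 1 of the 8, that of Atp6v1b1, held the motif. Of all 33469 windows of the same length, 1265 (3.78%) held it. A match is a description of the letters and not a binding site. The window of Atp6v1b1 (chr4:117781194-117781493, plus strand) is shown as the 1 window with a match, which lies 93 to 87 bases before the start and is given in capitals. That of Foxi1 (chr10:19314356-19314655, minus strand) is shown because Foxi1 had the largest difference between the groups among the 9 genes, and it has no match. Both run 5′ to 3′ on the strand of the gene.
Atp6v1b1: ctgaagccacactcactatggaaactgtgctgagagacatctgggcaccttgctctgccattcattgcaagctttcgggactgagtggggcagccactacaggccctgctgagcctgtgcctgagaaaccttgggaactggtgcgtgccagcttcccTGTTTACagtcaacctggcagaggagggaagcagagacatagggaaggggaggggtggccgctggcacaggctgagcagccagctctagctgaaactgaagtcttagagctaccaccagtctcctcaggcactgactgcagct
Foxi1: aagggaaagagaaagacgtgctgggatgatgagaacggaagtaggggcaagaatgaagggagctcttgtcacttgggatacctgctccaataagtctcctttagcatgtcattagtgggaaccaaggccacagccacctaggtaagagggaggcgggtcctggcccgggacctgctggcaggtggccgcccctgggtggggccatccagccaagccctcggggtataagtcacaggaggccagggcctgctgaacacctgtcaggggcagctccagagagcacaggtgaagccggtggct

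Levels are log2 processed intensities relative to the array's 75th percentile, so a level of 0 is the intensity at that percentile of the array's probes. Differences are p-nitroanisole minus vehicle. Each gene is given by its brightest probe, and levels of different probes are not compared. Over all 32203 rows tested (12201 named genes and 20002 unnamed probes), 24 had a limma adjusted p under 0.05, which is 0.0745% of rows (0.0497% higher and 0.0248% lower in p-nitroanisole rats). None of the 9 genes was among them, and the smallest adjusted p was 0.317. At an unadjusted p under 0.05 there was 1 of the 9, Slc4a9, against 13.5% of all rows (7.69% higher, 5.77% lower). The groups did not overlap in the same 1 gene, against 22.2% of all rows (11.9% higher, 10.3% lower). A total of 7 of the 9 genes were lower in p-nitroanisole rats, with a median log2 difference of -0.12 (range -0.43 to 0.27) against a median of 0.01 over all rows, of which 52.4% were higher. With quantile or median scaling of the arrays 8 of the 9 were lower, since the difference of Slc4a1, at 0.0029, changed sign. These scalings moved all rows, of which 46.1% were higher with quantile and 40.2% with median scaling. In whole cortex, fewer intercalated cells and less of an RNA per cell cannot be told apart.

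P-nitroanisole replicate 3 was hybridised on slide 2 and the other 5 arrays on slide 1. It had the lowest level of the 6 arrays for 8 of the 9 genes, against 22.5% of all rows, and the lowest of the p-nitroanisole arrays for all 9, against 37.3% of all rows. The same array was the lowest of the 6 for 3 of 4 other type A genes and 3 of 3 other type B genes, and the lowest of the p-nitroanisole arrays for each of them. Among 11 further genes of intercalated cells it was the lowest of the 6 for only 2 (18.2%). It was the lowest of the p-nitroanisole arrays for 7 of those 11. This animal and its slide cannot be told apart. Within slide 1, 5 of the 9 genes were lower in the 2 remaining p-nitroanisole rats, with a median of -0.08. On slide 1 both p-nitroanisole arrays lay in row 2 and all 3 vehicle arrays in row 1, so treatment and row cannot be told apart there.

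**Figure D1:**
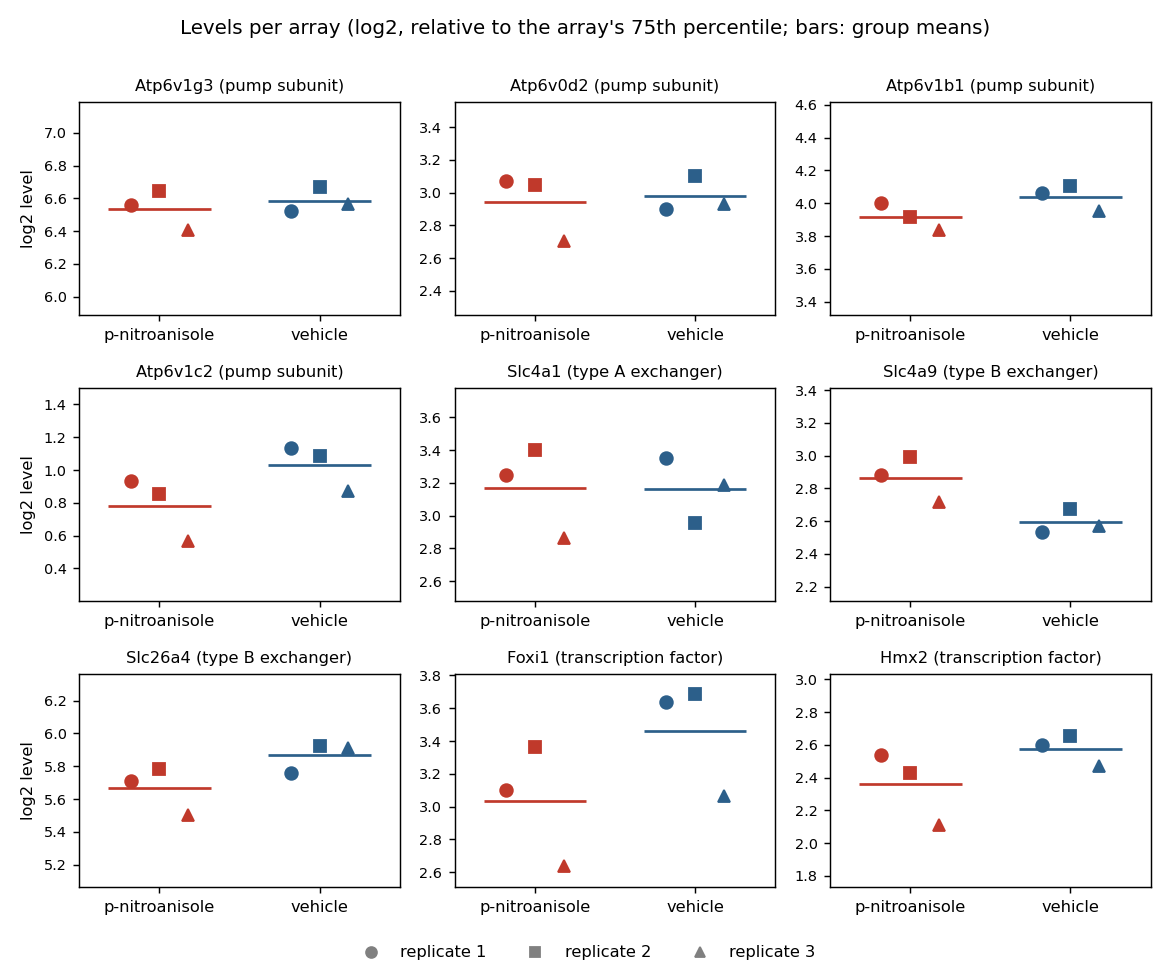
Log2 level of each of the 9 measured genes on each array (y axis, relative to the array's 75th percentile; every panel spans the same range), with p-nitroanisole arrays in red and vehicle arrays in blue. Horizontal bars are group means (n = 3). With this scaling the groups are apart only for Slc4a9, and p-nitroanisole replicate 3 (red triangle) is the lowest of the 6 arrays in every panel except that of Slc4a9.

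Of the pump subunits, those of the V1 sector were measured by Atp6v1b1, Atp6v1c2 and Atp6v1g3. Atp6v1b1 encodes the B1 subunit of the ATP-hydrolysing head, and its mutation in humans causes distal renal tubular acidosis with deafness. Its level was 4.002, 3.92 and 3.83 in p-nitroanisole replicates 1, 2 and 3, against 4.06, 4.10 and 3.95 in vehicle replicates 1, 2 and 3. The groups overlapped, with the highest p-nitroanisole value above the lowest vehicle value, and the difference was -0.12 (95% interval -0.31 to 0.07, limma adjusted p = 0.543).

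Atp6v1c2 encodes a C subunit of the V1 sector. Its level was 0.93, 0.85 and 0.57 in p-nitroanisole rats, against 1.14, 1.09 and 0.87 in vehicle rats. The difference of -0.25 (95% interval -0.56 to 0.06, limma adjusted p = 0.449) was the largest among the pump subunits measured, and 1 vehicle rat lay within the range of the p-nitroanisole group. Without p-nitroanisole replicate 3 it was -0.14.

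Atp6v1g3 encodes a G subunit of the stator. Its level was 6.56, 6.64 and 6.41 in p-nitroanisole rats, against 6.52, 6.67 and 6.56 in vehicle rats, and the groups overlapped. The difference was -0.05 (95% interval -0.26 to 0.17). Of the V0 sector, Atp6v0d2, a d subunit that osteoclasts also express, had levels of 3.07, 3.05 and 2.70 in p-nitroanisole rats, against 2.90, 3.10 and 2.93 in vehicle rats. Its difference was -0.04 (95% interval -0.34 to 0.27). Without p-nitroanisole replicate 3 both differences changed sign, to 0.02 for Atp6v1g3 and 0.08 for Atp6v0d2.

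The other subunits of the pump, most of which serve it in lysosomes and other compartments of all cells, were listed for comparison. Of the 20, 19 were tested, 17 had a higher mean in p-nitroanisole rats and 0 were called by limma, with 1 at an unadjusted p under 0.05. Their median difference was 0.07 (range -0.02 to 0.17). With quantile scaling 14 of the 19 were higher and with median scaling 12, where 46.1% and 40.2% of all rows were higher. In the scaling used the groups did not overlap in 3 of the 19, against 22.2% of all rows, and with median scaling in 2. The largest differences were those of Atp6v1e1, a stator subunit, at 0.17 (SE 0.08, limma adjusted p = 0.404) and of Atp6v0b, a subunit of the proton-carrying ring, at 0.16 (SE 0.06, limma adjusted p = 0.350).

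Each intercalated cell subunit was then set against its broadly expressed partner on the same array, which removes a scaling by a constant per array. Quantile scaling and background correction can still change the ratio. The log2 ratio of Atp6v1b1 to Atp6v1b2 was -0.94, -1.15 and -0.95 in p-nitroanisole rats, against -0.88, -0.87 and -0.86 in vehicle rats. Each p-nitroanisole value lay below each vehicle value, and the difference was -0.14 (exact permutation test, two-sided p = 0.1, the smallest that 3 against 3 allows; adjusted p = 0.36 over 6 ratios). Without p-nitroanisole replicate 2, whose ratio was the lowest, the difference was -0.08, and with normexp on the median signal the groups overlapped (exact permutation p = 0.2). The ratios of Atp6v1c2 to Atp6v1c1, Atp6v1g3 to Atp6v1g1 and Atp6v0d2 to Atp6v0d1 overlapped between the groups, with differences of -0.23, -0.08 and -0.07 (exact permutation p = 0.3, 0.2 and 0.7, adjusted p = 0.36, 0.36 and 0.7). With quantile scaling the Atp6v1g3 ratio did not overlap (difference -0.13, exact permutation p = 0.1).

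Among the exchangers, Slc4a9 was, in the scaling used, the 1 gene of the set whose groups did not overlap. With quantile scaling 2 genes of the set that were lower did not overlap either, and with median scaling 1 lower gene did not. Its level was 2.88, 2.99 and 2.71 in p-nitroanisole rats, against 2.54, 2.68 and 2.57 in vehicle rats. All 3 p-nitroanisole values were above all 3 vehicle values, and the difference was 0.27, or 1.20-fold (SE 0.09, 95% interval 0.04 to 0.50, limma adjusted p = 0.317), which does not pass the threshold. The groups overlapped with median scaling (difference 0.21) and with normexp on the median signal (difference 0.20). With the row of the slide as a block the difference was 0.12. That value rests on p-nitroanisole replicate 3, on slide 2, against the 3 vehicle arrays, on slide 1. The second Slc4a9 probe, A_64_P095413, gave 2.91, 2.98 and 2.74 in p-nitroanisole rats, against 2.53, 2.60 and 2.54 in vehicle rats, again with no overlap. Its difference was 0.32 (SE 0.08, limma adjusted p = 0.220 with every probe as its own row).

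Slc26a4 encodes pendrin, which exchanges chloride for bicarbonate at the apical membrane of type B cells. Its level was 5.71, 5.78 and 5.50 in p-nitroanisole rats, against 5.76, 5.93 and 5.91 in vehicle rats. The groups overlapped by 1 vehicle value, and the difference was -0.20 (95% interval -0.45 to 0.04, limma adjusted p = 0.445), or -0.12 without p-nitroanisole replicate 3. The second probe, A_42_P454378, gave a difference of -0.09 (SE 0.11) with overlapping groups.

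Slc4a9 and Slc26a4 thus differed in opposite directions, and the pair was set side by side within each array after these values had been seen, so the ratio is described without a test. With the brightest probes the log2 ratio of Slc4a9 to Slc26a4 was -2.83, -2.79 and -2.79 in p-nitroanisole rats, against -3.22, -3.25 and -3.34 in vehicle rats. The mean was -2.80 ± 0.02 in p-nitroanisole rats and -3.27 ± 0.06 in vehicle rats (SD, n = 3 each), a difference of 0.47. With the other probe of each gene the ratio was 0.08, 0.06 and 0.16 in p-nitroanisole rats, against -0.24, -0.39 and -0.31 in vehicle rats, a difference of 0.41. Over the 4 pairs of probes the difference ran from 0.36 to 0.52, and within slide 1, where treatment and row of the slide coincide, from 0.34 to 0.51. Within row 1, which holds p-nitroanisole replicate 3 and the 3 vehicle arrays, it ran from 0.41 to 0.55. That comparison has 1 treated animal, on slide 2, and all vehicle arrays on slide 1, so treatment and slide coincide there. The p-nitroanisole and vehicle arrays did not overlap for any of the 4 pairs, which are measured on the same 6 animals. P-nitroanisole replicate 3 was on the same side as the other p-nitroanisole arrays in each of these ratios. Since the genes were paired for their opposite differences, the separation partly follows from that choice and is no further support. The share of all gene pairs without overlap was not computed.

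Slc4a1 encodes AE1, the basolateral exchanger of type A cells and, in a longer form, the band 3 protein of red cells. Its level was 3.25, 3.40 and 2.86 in p-nitroanisole rats, against 3.35, 2.96 and 3.19 in vehicle rats. The groups overlapped, with the p-nitroanisole arrays both highest and lowest, and the difference was 0.0029 (95% interval -0.42 to 0.42, limma adjusted p = 0.995). Its second probe, A_43_P11502, had a difference of 0.21 (SE 0.18).

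Since red cells also transcribe Slc4a1 while they mature, markers of red cells were read on the same arrays. Of 13 markers 10 were tested, 9 were higher in p-nitroanisole rats and 3 were called by limma, with a median difference of 1.36. Their summed level lay between 843 and 991 times the array's 75th percentile in p-nitroanisole rats and between 333 and 413 times in vehicle rats. Only 8 of the 10 were well above background on all 6 arrays, and the others, both higher, passed the filter through 1 group alone. Of those 8, 7 were higher and 3 were called by limma, again with a median of 1.36. Alas2, which makes heme in developing red cells, differed by 1.91 (limma adjusted p = 0.0404), the globin gene Hba-a3 by 1.34 (limma adjusted p = 0.0453) and Hbb-b1 by 1.14 (limma adjusted p = 0.0492). Across the alternatives 0 to 5 of the list were called, and 0 when any 1 of the 6 arrays was left out, while 9 of the 10 stayed higher with each array left out. The part of red cell RNA in the Slc4a1 signal was not tested.

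The type A exchanger was compared with each type B exchanger within arrays. The log2 ratio of Slc4a1 to Slc26a4 averaged -2.50 ± 0.13 in p-nitroanisole rats and -2.70 ± 0.28 in vehicle rats (SD, n = 3 each; difference 0.20, exact permutation p = 0.3, adjusted p = 0.36). The ratio of Slc4a1 to Slc4a9 averaged 0.31 ± 0.14 in p-nitroanisole rats and 0.57 ± 0.27 in vehicle rats (difference -0.27, exact permutation p = 0.3, adjusted p = 0.36). In both ratios the groups overlapped. Without vehicle replicates 1 and 2 in turn the first difference was 0.35 and 0.07 and the second -0.14 and -0.44.

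**Figure D2:**
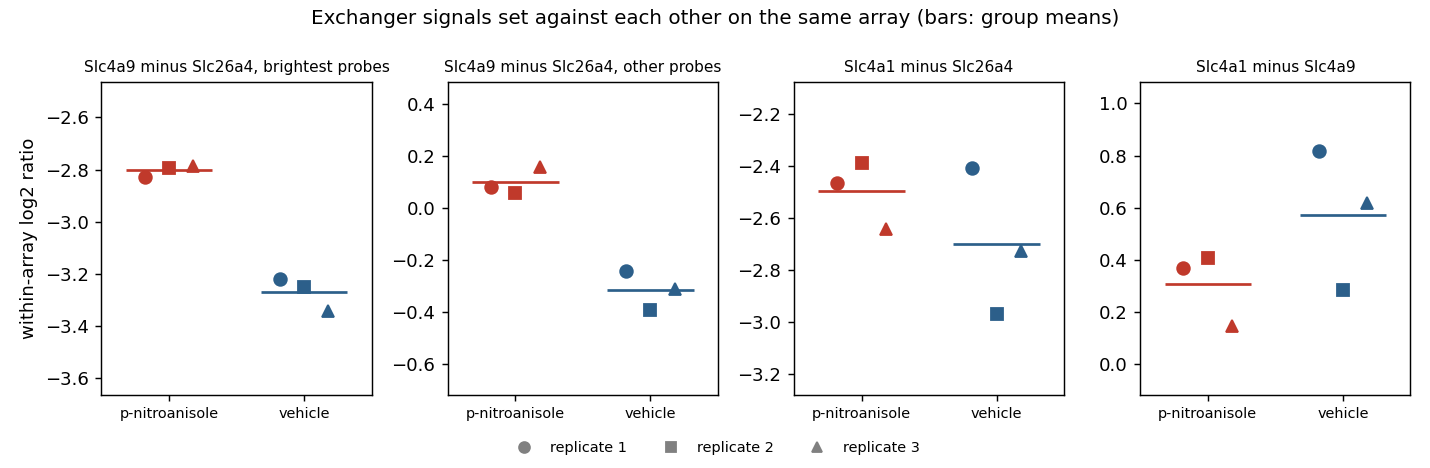
Within-array log2 ratio of exchanger signals (y axis) on the p-nitroanisole arrays (red) and vehicle arrays (blue), with bars at the group means (n = 3). The ratio of Slc4a9 to Slc26a4 separates the groups with the brightest and with the other probes, by 0.47 and 0.41. That pair was chosen after the values were seen, for its opposite differences, which partly sets the separation. Both ratios of Slc4a1 overlap. The absolute value of a ratio between probes has no meaning of its own.

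Foxi1 had the largest difference of the set, and also the largest SE. Its level was 3.10, 3.36 and 2.64 in p-nitroanisole rats, against 3.64, 3.68 and 3.07 in vehicle rats. The third vehicle rat lay within the p-nitroanisole range, and the difference was -0.43, or 0.743-fold (SE 0.25, 95% interval -1.03 to 0.17, limma adjusted p = 0.497). The 2 other Foxi1 probes differed by -0.34 (SE 0.17) and -0.25 (SE 0.26). Without p-nitroanisole replicate 3 the difference was -0.23.

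Hmx2 encodes a homeobox factor known from development of the inner ear in the mouse. Its level was 2.54, 2.43 and 2.11 in p-nitroanisole rats, against 2.60, 2.66 and 2.47 in vehicle rats. The groups overlapped by 1 value, and the difference was -0.22 (95% interval -0.53 to 0.10, limma adjusted p = 0.512). Its second probe gave -0.24 (SE 0.17), and without p-nitroanisole replicate 3 the difference of the first was -0.09.

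Over every probe of the set, 13 of the 17 had a lower mean in p-nitroanisole rats, and the 4 others were those of Slc4a1 and Slc4a9. Where a gene had more than 1 probe, all its probes lay on the same side of 0 in the scaling used. For Slc4a1 the brightest probe was close to 0, at 0.0029, and changed sign with quantile and median scaling. Probes of a gene read the same RNA and are not further replicates.

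**Figure D3:**
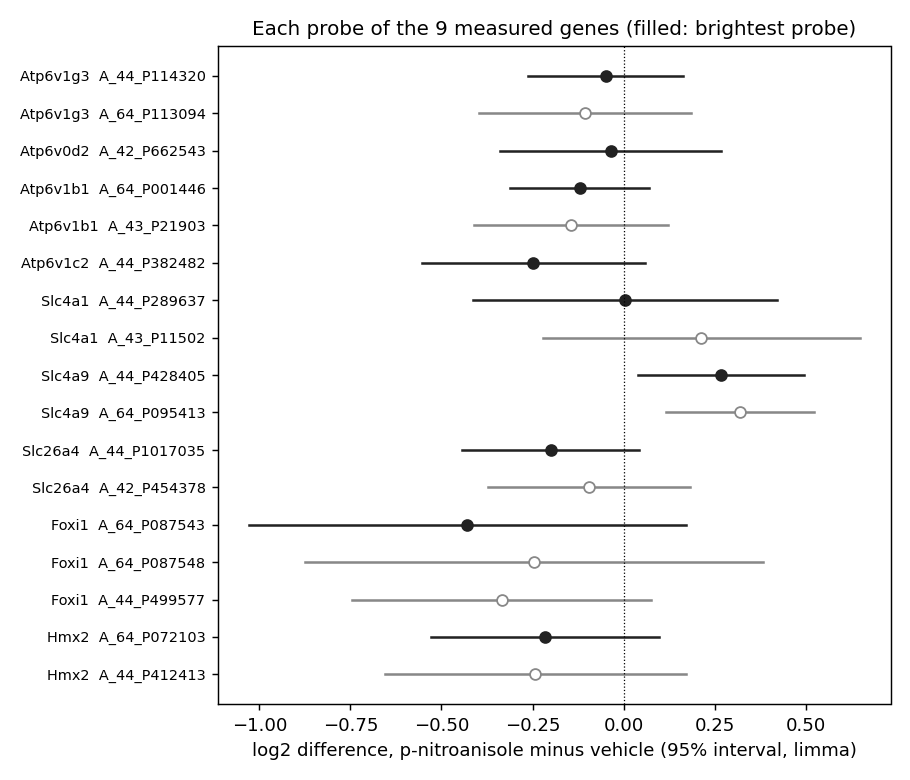
Log2 difference, p-nitroanisole minus vehicle (x axis), with its 95% interval from limma, for each of the 17 probes, listed by gene. Filled points mark the brightest probe of a gene and open points its other probes. The intervals of the 2 Slc4a9 probes lie above 0, and those of the other 15 cross it.

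Other genes of the type B cell included Oxgr1, the receptor for alpha-ketoglutarate, and Slc4a8, a sodium-driven chloride and bicarbonate exchanger, both assigned to this cell from work in the mouse. Oxgr1 had levels of -3.47, -3.23 and -3.64 in p-nitroanisole rats, against -3.16, -2.60 and -2.89 in vehicle rats. Slc4a8 had levels of -2.33, -2.23 and -2.38 in p-nitroanisole rats, against -2.03, -1.79 and -2.02 in vehicle rats. In both genes all p-nitroanisole values lay below all vehicle values, the opposite side to Slc4a9. Of all rows, 10.3% were lower without overlap. With normexp on the median signal the groups of Oxgr1 overlapped (difference -0.20) and those of Slc4a8 did not (difference -0.27). The differences were -0.56 (SE 0.17, limma adjusted p = 0.274) and -0.37 (SE 0.09, limma adjusted p = 0.211), and the second probes gave -0.60 and -0.33. Of the 4 listed type B genes 3 were tested, all 3 had a lower mean and 0 were called. At an unadjusted p under 0.05 there were 2 of the 3, against 13.5% of all rows (5.77% lower). The other one, the insulin receptor-related gene Insrr, differed by -0.0059, and by 0.09 without p-nitroanisole replicate 3. With no filter on dim probes the fourth gene, Sh2d4b, which was not well above background on all arrays of either group, was higher by 0.90 without overlap (limma adjusted p = 0.226), and the median of the 4 was -0.19. The median of the 3 tested was -0.37, and -0.20 with normexp on the median signal.

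Of 4 type A genes other than Slc4a1, all tested, 3 had a lower mean, none was called by limma or had an unadjusted p under 0.05, and the median difference was -0.08. The adhesion receptor gene Adgrf5, known from type A cells of the mouse, had levels of 2.28, 2.36 and 1.86 in p-nitroanisole rats, against 2.33, 2.59 and 2.45 in vehicle rats (difference -0.30, SE 0.15). Its lowest value was that of p-nitroanisole replicate 3, and without that array the difference was -0.14. The receptor kinase gene Kit differed by -0.11 (SE 0.13).

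A further list held other genes of intercalated cells, among them those of ammonia and chloride transport. Of 13 listed 11 were tested, 7 had a higher mean and 4 a lower one, 0 were called by limma with 1 at an unadjusted p under 0.05, and their median was 0.12 (0.01 with quantile and 0.06 with median scaling, and -0.01 without vehicle replicate 1, where 5 were higher and 6 lower). The membrane protein gene Tmem117 had the largest difference, at -0.36 (SE 0.07, limma adjusted p = 0.155), and its second probe gave 0.06. Atp12a, a proton and potassium pump of the collecting duct, differed by 0.32 (SE 0.22).

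Principal cells, which reabsorb sodium and water beside the intercalated cells, were read with 8 tested of 9 markers. Of the 8, 7 had a lower mean in p-nitroanisole rats and 0 were called by limma (1 with a trended robust variance). At an unadjusted p under 0.05 there were 3, against 13.5% of all rows. The median difference of the 8 was -0.27. Their summed level was 176 to 203 times the array's 75th percentile in p-nitroanisole rats and 209 to 234 times in vehicle rats, without overlap. The water channel gene Aqp2 had the highest level in that sum. Its groups overlapped (difference -0.11), and its second probe gave 0.16. The vasopressin receptor gene Avpr2 differed by -0.41 (SE 0.06, limma adjusted p = 0.117) and the transcription factor gene Elf5 by -0.43 (SE 0.14). The summed level of the 9 intercalated cell genes was 177 to 214 times in p-nitroanisole rats and 207 to 224 times in vehicle rats, with overlap. Whether the share of collecting duct in the dissected cortex differed was not tested.

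**Figure D4:**
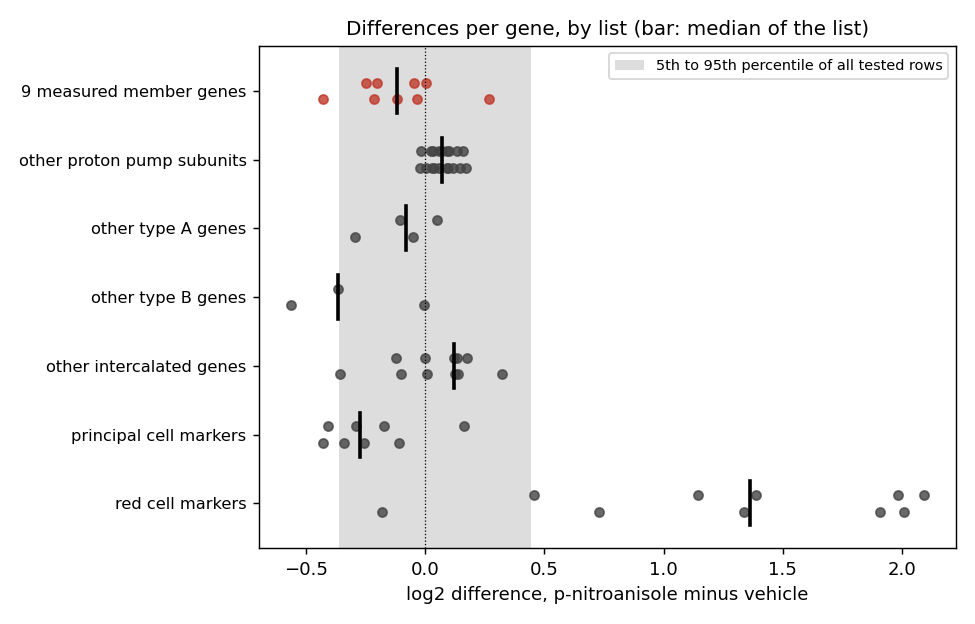
Log2 difference, p-nitroanisole minus vehicle (x axis), of each tested gene, by list (rows), with a bar at the median of the list and the 9 measured genes of the set in red. The grey band runs from the 5th to the 95th percentile of all tested rows, -0.36 to 0.45. Of the 9 genes only Foxi1, at -0.43, lies outside it, while the red cell markers have a median of 1.36.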

How the data were processed

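Gene expression was measured in the renal cortex of 3 p-nitroanisole and 3 vehicle rats on 1-colour arrays, 1 animal per array. The deposited scanner files hold Agilent Feature Extraction 10.7.1.1 intensity values, per the file headers. Scanner software had subtracted background from the processed intensity without scaling arrays to each other. In the authors' deposited value table the same intensities were divided by 1 constant per array, near its 75th percentile, without centring per gene; its column medians were 0.109, 0.108 and 0.111 for p-nitroanisole and 0.105, 0.105 and 0.105 for vehicle.

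Each array had 61537 non-control probes, of which 66.4% to 69.2% were well above background, and saturation was flagged at no spot. Precision is limited by the array number. Processed intensities were floored at 1, put on a log2 scale and set relative to each array's 75th percentile. Control and outlier-flagged spots (0 to 4 per array, none of them of the genes described) were removed. Testing required a probe to be well above background on each of the 3 arrays in 1 group or both. Probes were named by RefSeq accession (45.8% of probes), and the brightest tested probe stood for each gene. The fit across rows used lmFit and eBayes (limma 3.58.1, R 4.3.3). Its p-values are two-sided and were adjusted by Benjamini-Hochberg across the 32203 rows. The fit was tested on simulated data. Within-array ratios were compared with exact permutation tests; that for Atp6v0a4 had no probe. The members and lists were chosen with earlier results of these data known. Named genes were all members, their partner subunits and, of each other list, the called genes or, with none, the 2 with the largest differences. Insrr, Sh2d4b and Aqp2 were added after their values were seen. Alternatives covered scaling, background correction, dim-probe filters, probe choice, variance model, slide, slide row, replicate number, threshold and leaving out each array. The planned normexp correction on mean signals used median signals instead, since the files hold no mean signal; that choice came after seeing the files. Replicate numbers did not pair the animals (correlation of deviations -0.01, 0.04 and -0.01 for replicates 1, 2 and 3).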

Additional observations from a re-analysis of the deposited data

How the results depend on the processing

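No gene of the set was called under any of the 19 alternatives run, so each result below is a value without a call. The number of rows called over the whole array, 24, was 85 with normexp on the median signal, 2 with no filter on dim probes, 316 with a trended robust variance, 1000 with the row of the slide as a block, 9 with slide as a block, 15 within slide 1 and 0 at an adjusted p of 0.01. Leaving out p-nitroanisole replicates 1, 2 and 3 gave 0, 6 and 15 rows and leaving out vehicle replicates 1, 2 and 3 gave 1, 0 and 9 (3769, 4312 and 4395, and 3424, 3289 and 3367 at an unadjusted p under 0.05). With the replicate block, 1 row was called; the numbers do not pair the animals. The median difference of the 9 genes, -0.12, ran from -0.16 to -0.08 when 1 array was left out (-0.08 without p-nitroanisole replicate 3), and was -0.30 with the row of the slide as a block, where p-nitroanisole replicate 3 is the 1 treated array that shares a row with vehicle arrays. Directions of Slc4a9, Slc26a4, Foxi1, Hmx2, Atp6v1b1 and Atp6v1c2 held in all 18 alternatives with a value, but several of these could not change a direction. The dim-probe filters, the variance model, the replicate block and every probe as its own row left each difference as it was. Slide as a block, slide 1 alone and leaving out p-nitroanisole replicate 3 gave the same difference. That of Atp6v1g3 turned to 0.015 with slide as a block, within slide 1 and without p-nitroanisole replicate 3. That of Atp6v0d2 turned to 0.084 in the same 3 settings and to 0.027 without vehicle replicate 2, and its ratio to Atp6v0d1 to 0.031 within slide 1, which is also the setting without p-nitroanisole replicate 3. That of Slc4a1, near 0, turned to -0.0053 with quantile scaling, -0.053 with median scaling, -0.30 with the row of the slide as a block, -0.04 and -0.11 without p-nitroanisole replicates 1 and 2 and -0.10 without vehicle replicate 2, and was highest, at 0.16, without p-nitroanisole replicate 3. The cause was not tested. With quantile scaling 5 of the 6 cortex markers were lower, against 3 in the scaling used. Of all rows 46.1% were higher with quantile scaling and 52.4% in the scaling used. Both ratios of Slc4a1 kept their direction in 13 alternatives, from 0.07 to 0.35 against Slc26a4 and from -0.44 to -0.14 against Slc4a9. Median scaling and the dim-probe filters cannot change such a ratio, and slide 1 alone is the setting without p-nitroanisole replicate 3.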

Other observations

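Other cells of the cortex gave the following values on the same arrays. Of 6 markers of the distal convoluted and connecting tubule, where some intercalated cells also lie, 4 were tested, 2 had a higher and 2 a lower mean in p-nitroanisole rats and 0 were called by limma or had an unadjusted p under 0.05. Their median difference was 0.04, with the calcium-binding protein gene Calb1 at 0.33 (SE 0.25) and the calcium channel gene Trpv5 at 0.12 (SE 0.27), or -0.06 without p-nitroanisole replicate 1. Defining markers of the cortex were all present. Of these 6 proximal tubule and podocyte genes 3 had a higher and 3 a lower mean, with a median of -0.01, the organic anion transporter gene Slc22a6 at 0.18 (SE 0.06) and the podocyte gene Nphs1 at -0.17 (SE 0.10). Macrophage and osteoclast markers were read because osteoclasts express Atp6v0d2. Of 10 listed 8 were tested, 3 had a higher and 5 a lower mean and 0 were called by limma. At an unadjusted p under 0.05 there were 2 of the 8, against 13.5% of all rows. They were the mannose receptor gene Mrc1 at 0.52 (SE 0.18) and the lysosomal glycoprotein gene Cd68 at -0.43 (SE 0.17). Without p-nitroanisole replicate 3, Cd68 was at -0.27. The median of the list was -0.05.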
